A study of Mus musculus with 4 samples.

Results

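The peroxiredoxin, thioredoxin and sulfiredoxin system of the mouse was described on 4 oligonucleotide arrays, 1 for each genotype (d/d and f/f) in each tissue (heart and muscle). The genes were listed by name, 9 in all (Prdx2, Prdx3, Prdx4, Prdx6, Txn1, Txn2, Txnrd1, Txnrd2 and Srxn1), and every probe set that the platform annotation gives to 1 of them alone was taken. This gave 23 probe sets of 8 genes, out of 18193 genes named by at least 1 probe set. Prdx6 had no probe set listed under its symbol and was not analysed here.

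The d/d mice lack manganese superoxide dismutase (MnSOD, gene Sod2) in muscle tissues. They came from crosses of mice homozygous for a floxed MnSOD gene with mice that carry the MCK-Cre transgene, which expresses Cre recombinase under the muscle creatine kinase promoter. The f/f mice carry the floxed gene on both copies and are labelled as controls. MCK-Cre acts in heart and skeletal muscle fibres, so other cells of these tissues, such as fibroblasts, endothelial cells and macrophages, keep the gene in d/d mice. The labels used here give no age, sex or strain, do not name the muscle taken, and do not say how many animals a sample holds or whether f/f mice carried Cre. With 1 array per group, each difference below describes a pair of arrays, and no error between animals can be given.

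MnSOD turns superoxide into hydrogen peroxide in the mitochondrial matrix. Peroxiredoxins remove hydrogen peroxide with a reactive cysteine. Prdx2 and Prdx3 are then reduced by thioredoxin, which thioredoxin reductase, a selenoprotein, recharges with electrons from NADPH. Prdx3, Txn2 and Txnrd2 make up this chain in mitochondria, and Prdx2, Txn1 and Txnrd1 in the cytosol, while Prdx4 works in the endoplasmic reticulum. When peroxide is high, the reactive cysteine is oxidised further and the enzyme stops working, and sulfiredoxin, encoded by Srxn1, restores it with ATP. Srxn1 and Txnrd1 are known targets of NRF2, the transcription factor of the oxidative stress response.

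The values below are intensities brought to a common trimmed mean. A probe set was taken as measured in a comparison when at least 1 of its arrays was above a floor of 7.51, and a difference counted when it reached 2-fold. Probe sets differ in brightness for reasons other than transcript amount, so values are set side by side only within a probe set. Of the 23 probe sets, 20 were above the floor on all 4 arrays, 2 on some and 1, of Prdx4, on none. Where a range at like level is given, it is the central 95% range over 500 probe sets. These were the nearest in level among the probe sets above the floor on both arrays. The range holds the true differences of those genes as well as noise. In bulk tissue, fewer cells of a type and less RNA per cell cannot be told apart.

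The tissue labels were borne out by the markers of heart and skeletal muscle. The summed level of 6 cardiomyocyte markers was 30475 in d/d heart and 183 in d/d muscle, and 28327 in f/f heart and 613 in f/f muscle. That of 8 skeletal fibre markers was 64030 in d/d muscle, against 62404 in f/f muscle, with 6 of the 8 at the floor in d/d heart, against 4 in f/f heart. All 4 probe sets of Sod2 read lower in d/d heart, with log2 differences of -0.21 to -1.22, and in muscle they differed by -0.44 to 0.06. Their place relative to the deletion is not given here, so they do not check the genotype. The arrays of d/d and f/f correlated at 0.973 in heart and 0.978 in muscle across probe sets.

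Srxn1 was the gene of the system with the widest difference between d/d and f/f on its brightest probe set, and this difference was seen in heart. On its brightest probe set Srxn1 read 99.2 in d/d heart, against 49.5 in f/f heart, and 63.85 in d/d muscle, against 60.25 in f/f muscle. The probe set next in brightness read 112.5 in d/d heart, against 49.65 in f/f heart, and 56.5 in d/d muscle, against 55.7 in f/f muscle. A dimmer probe set, made from the same sequence record as the brightest, read 36.0 in d/d heart, against 12.75 in f/f heart, and 27.7 in d/d muscle, against 28.5 in f/f muscle. On each of these 3 probe sets the d/d heart array was the highest of the 4. On the first and the next the other 3 arrays lay between 49.5 and 63.85, while on the dimmer one f/f heart was the lowest.

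These probe sets put Srxn1 2.01-fold, 2.27-fold and 2.82-fold higher in d/d heart, or 1.004, 1.18 and 1.496 on the log2 scale. The range at like level ran to 1.09, 1.08 and 1.17, so the difference on the brightest probe set lay inside it and those on the other 2 lay above it. In muscle the same probe sets differed by 0.08, 0.02 and -0.04, the first of which was -0.01 with the values as deposited. The last of its 4 probe sets lay near the floor and went the other way in heart, at 6.10 in d/d heart, against 14.6 in f/f heart, at least 1.95-fold lower. In muscle its signal was 15.5 in d/d, against 1.49 in f/f, at least 2.06-fold higher. As bounds on the log2 scale these were -0.96 in heart and 1.045 in muscle. The range at like level is drawn from probe sets above the floor on both arrays, so these bounds cannot be set against it. Over all settings tried the heart difference of Srxn1 ran from 0.82 to 1.09, the highest with the median over its probe sets. On the brightest probe set it fell short of 2-fold with the values as deposited (0.95) and with an offset of 16 in place of the floor (0.82).

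The interval from 250 bases before to 50 bases after the start of Srxn1 is shown here because Srxn1 had the widest heart difference of the system. Beside it is that of Txnrd1, which was also higher in d/d heart on its probe sets. Prdx4 was also higher there on its 3 measured probe sets, by 0.04 to 0.58 on the log2 scale. Its interval held no match to the motifs below and is not printed. The 2 printed intervals are thus the only ones of the system with a match. Both are from RefSeq, build GRCm38.p6, printed 5′ to 3′ in the direction of the gene. Capitals mark matches to the antioxidant response element core TGACNNNGC, to the AP-1 site TGACTCA and to the AP-1-type antioxidant element TGANTCAGC, on either strand. The Srxn1 interval is chr2:152105274-152105573, plus strand. The Txnrd1 interval is chr10:82858956-82859255, plus strand, and is the only 1 of the 3 RefSeq start intervals of Txnrd1 with a match.
Srxn1: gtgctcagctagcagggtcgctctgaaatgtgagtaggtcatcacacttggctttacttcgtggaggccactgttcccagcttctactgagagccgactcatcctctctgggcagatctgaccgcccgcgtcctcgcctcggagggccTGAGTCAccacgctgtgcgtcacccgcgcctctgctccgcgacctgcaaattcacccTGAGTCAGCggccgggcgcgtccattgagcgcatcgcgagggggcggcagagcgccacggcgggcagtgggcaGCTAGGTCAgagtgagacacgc
Txnrd1: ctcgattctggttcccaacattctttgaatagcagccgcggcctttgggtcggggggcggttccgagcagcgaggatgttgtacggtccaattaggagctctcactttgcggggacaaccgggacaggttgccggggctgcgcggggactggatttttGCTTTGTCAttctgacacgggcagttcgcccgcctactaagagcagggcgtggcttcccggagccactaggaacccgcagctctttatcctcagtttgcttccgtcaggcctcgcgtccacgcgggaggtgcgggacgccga

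Srxn1 held 1 match to TGACNNNGC, 29 bases into the transcript and on the minus strand, and 2 matches to the AP-1 site, at -102 and -45 from the start. The match at -45 extends to TGAGTCAGC, which is also the form TGANTCAGC, so these 2 motifs overlap there. That form was added to the search after the sequence had been read. Txnrd1 held 1 match to TGACNNNGC, at -92 on the minus strand. Intervals were listed for 8 of the 9 genes, 10 in all, and the other 6 genes with an interval held no match to any of the 3 motifs. Of 32817 RefSeq intervals of the same length, 12.4% held TGACNNNGC, 5.2% held TGACTCA and 1.19% held TGANTCAGC. The G and C content of the 10 intervals ran from 48.0% to 68.7%, with 8 of them above the median of 52.7% over all intervals. A match is a description of letters, and binding there was not measured.

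**Figure D1:**
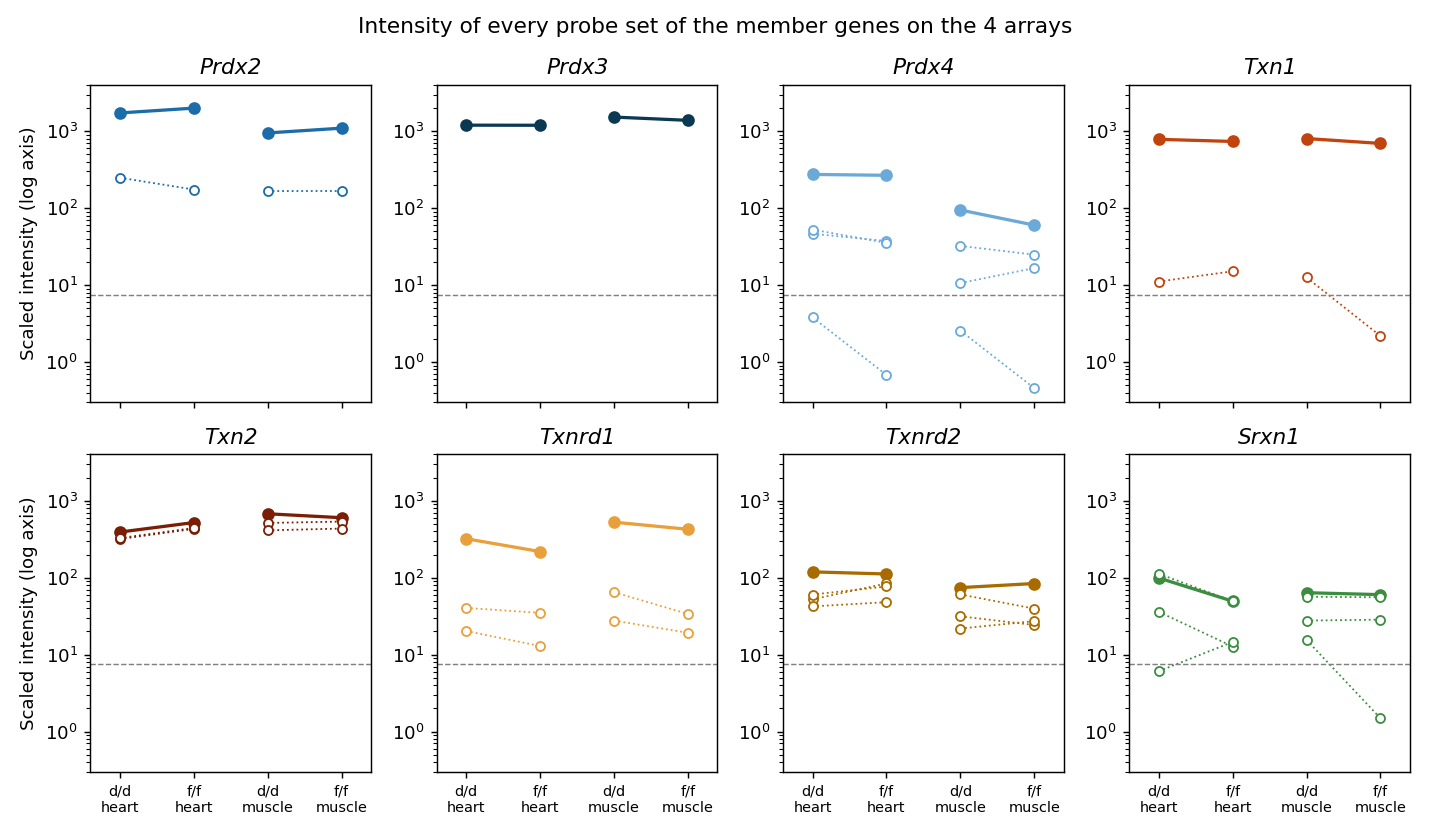
Scaled intensity on a log axis of all 23 probe sets of the 8 genes on the 4 arrays, d/d before f/f and heart before muscle, 1 point per array; filled points and solid lines are the brightest probe set of each gene, open points and dotted lines the others, and the dashed grey line is the floor of 7.51. Srxn1 is at 99.2 in d/d heart against 49.5 in f/f heart on its brightest probe set, while Prdx3 and Txn1 are nearly level, and Prdx4 is higher in heart than in muscle.

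Thioredoxin reductases passed 2-fold in neither tissue between genotypes. Txnrd1, the cytosolic enzyme, read 321 in d/d heart, against 219 in f/f heart on its brightest probe set, and 527 in d/d muscle, against 426 in f/f muscle. It was 1.47-fold higher in d/d heart and 1.24-fold higher in d/d muscle, log2 differences of 0.56 and 0.31, both inside the ranges at like level (to 0.95 and 0.45). The 2 dimmer probe sets of Txnrd1 were also higher in d/d. One read 40.5 in d/d heart, against 34.9 in f/f heart, and 64.8 in d/d muscle, against 33.8 in f/f muscle, where the difference of 0.94 lay above the range at like level (to 0.84). The other read 20.3 in d/d heart, against 12.9 in f/f heart, and 27.7 in d/d muscle, against 19.2 in f/f muscle. The signal of Txnrd1 was thus higher in d/d on 3 of 3 probe sets in heart and on 3 of 3 in muscle, though averaged over the tissues the brightest differed by 0.43 (SE 0.265) with an adjusted p of 1.0 by limma.

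Txnrd2, the mitochondrial reductase, had probe sets that disagreed in direction. Its brightest read 119 in d/d heart, against 112 in f/f heart, and 74.35 in d/d muscle, against 84.1 in f/f muscle. The log2 differences of 0.09 in heart and -0.18 in muscle became -0.27 and 0.10 with the median over its 4 probe sets. A dimmer one read 52.4 in d/d heart, against 84.2 in f/f heart, 1.61-fold lower, and 60.7 in d/d muscle, against 39.6 in f/f muscle, 1.53-fold higher. Of the 4, 1 was above 0 in heart and 2 were above 0 in muscle.

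The thioredoxins differed by less than 1.5-fold on their brightest probe sets. Txn1, of the cytosol and nucleus, read 785 in d/d heart, against 737 in f/f heart, and 804 in d/d muscle, against 694 in f/f muscle. Its range over the 4 arrays, 0.21 on the log2 scale, was the narrowest of the 8 genes. Its other probe set was near the floor, at 11.1 in d/d heart, against 15.1 in f/f heart, and at 12.6 in d/d muscle, against 2.18 in f/f muscle.

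Txn2, the mitochondrial thioredoxin, read lower in d/d heart with all 3 of its probe sets. The brightest read 392 in d/d heart, against 522 in f/f heart, the next 318 in d/d heart, against 432 in f/f heart, and the last 328 in d/d heart, against 443 in f/f heart. The log2 differences were -0.41, -0.44 and -0.44, an SD of 0.02 between probe sets, each inside the range at like level. In muscle the probe sets read 678, 515 and 413 in d/d, against 602.5, 537 and 436 in f/f, with differences of 0.17, -0.06 and -0.08. Over all settings tried the heart difference of Txn2 ran from -0.47 to -0.40.

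Among the peroxiredoxins the genotype differences in heart stayed under 1.5-fold on every measured probe set. Prdx3, the mitochondrial peroxiredoxin, read 1199.5 in d/d heart, against 1196 in f/f heart, a ratio of 1.003, and 1528 in d/d muscle, against 1386 in f/f muscle, a ratio of 1.10. It has 1 single-symbol probe set, so no other reading of it was used here. Its heart difference of 0.004 was -0.03 with quantile normalization and -0.05 with the values as deposited.

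Prdx2, an abundant cytosolic peroxiredoxin and a major protein of red cells, read 1729.5 in d/d heart, against 1999 in f/f heart on its brightest probe set, and 951 in d/d muscle, against 1097 in f/f muscle. It was 1.16-fold lower in d/d heart and 1.15-fold lower in d/d muscle. The dimmer probe set went the other way in heart, at 249 in d/d and 175 in f/f, and stood at 167 in muscle of both genotypes, so the heart difference of -0.21 became 0.15 with the median over the 2 probe sets. Of the 6 red cell markers, 3 matched a gene on the arrays: Alas2, Slc4a1 and Hba-a1. Their summed level was 90.05 in d/d heart, against 105 in f/f heart, and 62.3 in d/d muscle, against 52.6 in f/f muscle. Most of each sum was Alas2, nearly level in heart at 79.27 in d/d and 77.45 in f/f. The other markers were dim and lower in d/d heart. Slc4a1 read 8.307 in d/d heart, against 15.98 in f/f heart. Hba-a1 was at the floor in d/d heart, against 11.65 in f/f heart. In muscle Alas2 and Slc4a1 were higher in d/d, and Hba-a1 was at the floor in d/d. The sum is thus a weak reading of red cells, and their part in the Prdx2 values was not tested.

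Prdx4, the peroxiredoxin of the endoplasmic reticulum, differed little between genotypes in heart on its brightest probe set, at 274.5 in d/d and 267.5 in f/f. In muscle it read 94.6 in d/d, against 60.25 in f/f, 1.57-fold higher, and the log2 difference of 0.65 lay just above the range at like level (to 0.63). The other measured probe sets of Prdx4 gave 32.35 in d/d muscle, against 24.9 in f/f muscle, and 10.6 in d/d muscle, against 16.6 in f/f muscle, so 2 of 3 were higher. In heart all 3 were higher in d/d, by 0.04 to 0.58 on the log2 scale, the brightest being -0.02 with the values as deposited.

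**Figure D2:**
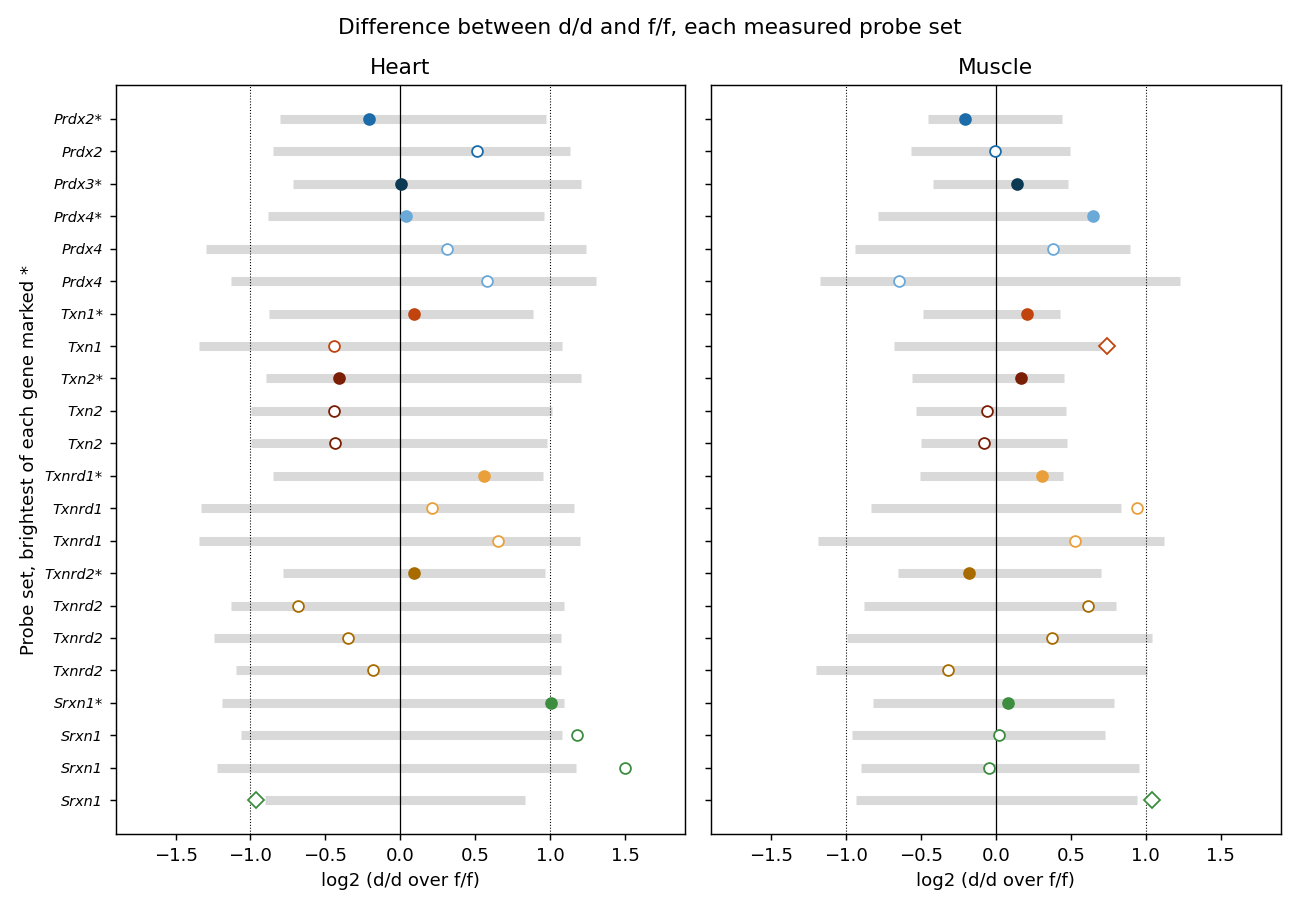
Log2 difference between d/d and f/f in heart (left) and muscle (right) for the 22 measured probe sets, 1 row each; filled points are the brightest probe set of a gene, diamonds are lower bounds against the floor, grey bars are the central 95% range over the 500 probe sets nearest in level, and dotted lines mark 2-fold. In heart 3 Srxn1 probe sets lie at 1.004 or above, and the 3 of Txn2 lie between -0.41 and -0.44. The bars are drawn from probe sets above the floor on both arrays, so the diamonds cannot be set against them.

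Counted over the system, 3 of 22 measured probe sets, all of Srxn1, reached 2-fold in favour of d/d heart, as did 3.66% of all 29960 measured probe sets. None of the 22 was at least 2-fold lower, against 4.54% of all. By gene, 1 of 8 differed 2-fold in heart, Srxn1, against 8.16% of all genes. In muscle 1 of 22 was at least 2-fold higher, the Srxn1 probe set near the floor, and 0 were lower, against 3.13% and 3.4% of all probe sets. By gene, 0 of 8 differed 2-fold in muscle, against 5.89% of all genes. The median log2 difference of the 8 genes was 0.07 in heart, where that of all genes was -0.05, and 0.16 in muscle, where that of all genes was -0.003.

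By compartment the values are described here without a test. In heart, of the 11 cytosolic probe sets (Prdx2, Txn1, Txnrd1 and Srxn1), 8 were above 0, with a median of 0.51. Of the 8 mitochondrial ones (Prdx3, Txn2 and Txnrd2), 2 were above 0, with a median of -0.38. Over all measured probe sets in heart 44.8% were above 0. In muscle 8 of the 11 cytosolic and 4 of the 8 mitochondrial probe sets were above 0, with medians of 0.21 and 0.04, against 50.6% of all. Probe sets of a gene share its transcript, so these counts rest on 4 and 3 genes. Taken by gene, on the brightest probe sets, 3 of the 4 cytosolic and 2 of the 3 mitochondrial genes were above 0 in heart, with medians of 0.32 and 0.004, and the same numbers were above 0 in muscle.

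**Figure D3:**
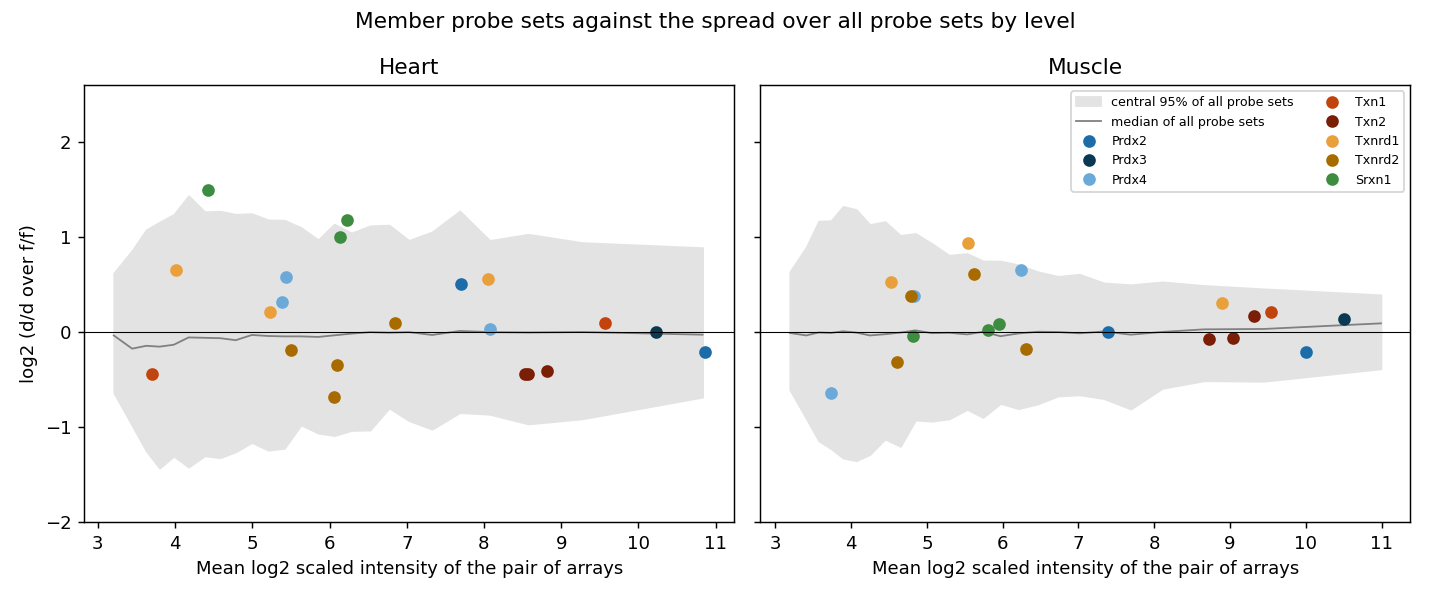
Log2 difference between d/d and f/f against the mean log2 scaled intensity of the pair of arrays, in heart (left) and muscle (right), for the member probe sets above the floor on both arrays; the grey band holds the central 95% of all probe sets in 25 bins of level and the grey line is their median. In heart 2 of 21 member probe sets, both of Srxn1, lie above their range at like level, and in muscle 2 of 20, of Prdx4 and Txnrd1.

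A fit with limma over all 4 arrays, with tissue as a block, tested the genotype difference averaged over heart and muscle across 13497 genes. At an adjusted p under 0.05 it called 0 genes (0% of those tested) and 0 of the 8 members, while 570 genes, and none of the members, had an unadjusted p under 0.05. Srxn1 had an estimate of 0.54 (SE 0.325) and Prdx4 of 0.34 (SE 0.29), each with an adjusted p of 1.0 in this limma fit. The fit leaves 1 residual degree of freedom and takes a genotype difference that is unequal in heart and muscle, as that of Srxn1 was, as error.

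Between the tissues Prdx4 stood highest in heart. Its brightest probe set was 2.90-fold higher in heart than in muscle in d/d and 4.44-fold higher in f/f, and in the same limma fit the tissue difference averaged over the genotypes was 1.84 (SE 0.29), with an adjusted p of 0.0173. That was the only member called, among 13.6% of all genes. On the log2 scale the ratios of its brightest probe set, 1.54 in d/d and 2.15 in f/f, lay inside their ranges at like level (to 2.14 and 2.26). A dimmer Prdx4 probe set was 4.96-fold higher in d/d heart than in d/d muscle and 2.13-fold higher in f/f heart than in f/f muscle. Another was 1.44-fold higher in d/d and 1.505-fold in f/f. The 4.96-fold ratio, 2.31 on the log2 scale, lay above its range (to 2.26). It was the only 1 to do so of 21 member probe sets above the floor on both d/d arrays. In f/f 0 of 20 did. The Prdx4 call was lost without the filter on low signals, at an adjusted p of 0.223 by limma, where no gene passed.

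Prdx2 was 1.82-fold higher in heart in both d/d and f/f on its brightest probe set, with a limma estimate of 0.86 (SE 0.26, adjusted p = 0.0858). Its dimmer probe set was 1.49-fold higher in heart in d/d and 1.04-fold in f/f. Txnrd1 was lower in heart, by -0.72 in d/d and -0.96 in f/f on the log2 scale, with a limma estimate of -0.84 (SE 0.265, adjusted p = 0.0947). Its 2 dimmer probe sets gave -0.68 and -0.45 in d/d, against 0.05 and -0.57 in f/f, so 1 of the 3 was not lower in f/f heart. Among the settings tried, Prdx2 and Txnrd1 passed the threshold only with a robust fit that lets the variance follow the level, at limma adjusted p of 0.00398 and 0.0123. Txnrd2 was higher in heart by 0.68 in d/d and 0.41 in f/f, with a limma adjusted p of 0.226. Of its 3 other probe sets 1 went the other way in d/d, at -0.21, and all were higher in f/f heart. Txn2 was lower in heart by -0.79 in d/d and -0.21 in f/f, the second of which was 0.22 with the values as deposited, and 1 of its 3 probe sets gave 0.02 in f/f. Prdx3, at -0.35 in d/d and -0.21 in f/f, turned to 0.12 and 0.22 with the values as deposited. Txn1 lay at -0.03 in d/d and 0.09 in f/f, of which the first was positive with quantile normalization (0.08) and with the values as deposited (0.43), and the second negative with scaling on the median (-0.04).

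Srxn1 had ratios of heart over muscle of opposite sign in the genotypes. Its brightest probe set was higher in heart than in muscle by 0.64 in d/d and lower by -0.28 in f/f, where it was 0.15 with the values as deposited. The 2 probe sets next in brightness gave 0.99 and 0.38 in d/d, against -0.16 and -1.16 in f/f. The probe set near the floor changed side the other way, with bounds of -1.05 in d/d and 0.96 in f/f. Each of these tissue ratios uses the same heart arrays as the genotype differences above, so they are the same values read another way.

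By count, 2 of 22 probe sets, both of Prdx4, were at least 2-fold higher in heart in d/d, against 13.3% of all, and 1 was at least 2-fold lower, the Srxn1 probe set near the floor, against 10.4%. In f/f 5 were at least 2-fold higher, 2 of Prdx4, 2 of Txnrd2 and 1 of Txn1 as a lower bound, against 11.3% of all, and 1 was lower, of Srxn1, against 7.87%. By gene 1 of 8 differed 2-fold between the tissues in each genotype, Prdx4, where 25.6% of all genes did in d/d and 20.4% in f/f.

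**Figure D4:**
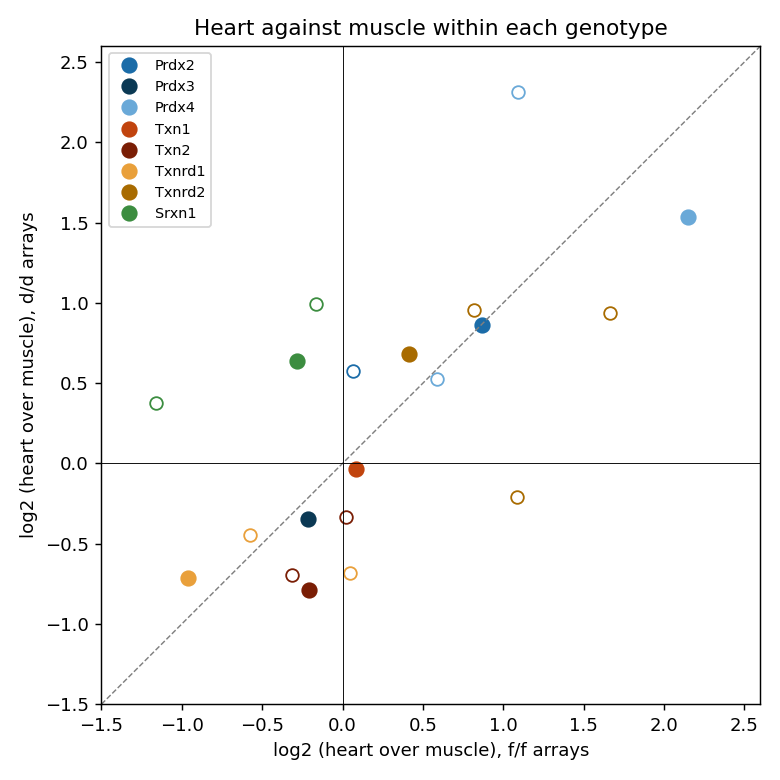
Log2 ratio of heart over muscle on the d/d arrays (vertical) against the f/f arrays (horizontal) for the member probe sets above the floor on all 4 arrays; filled points are the brightest probe set of each gene and the dashed line marks equal ratios. Prdx4 lies highest among the filled points, at 1.54 in d/d and 2.15 in f/f, and the 3 Srxn1 probe sets lie above the line, with positive ratios in d/d and negative ones in f/f.

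The genes whose profile over the 4 arrays lay closest to that of Prdx4, by the root mean square distance between log2 profiles centred on their own mean among 10538 genes above the floor on all arrays, were Zfp810 (0.061), Ptprn (0.069) and Casp6 (0.078). For Txnrd1 they were Tln1 (0.018), Tsc22d3 (0.028) and Cd8a (0.048). Cd8a read 7.65 to 17.3 on the 4 arrays, close to the floor. Over 4 arrays this likeness is a description only.

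Over 6 lists of related genes, 3 of 61 measured genes differed 2-fold between genotypes in heart and 2 of 61 in muscle, against the 8.16% and 5.89% of all genes given above. Of 11 entries on a list of other peroxiredoxin and thioredoxin genes 9 were measured. None of these 9 is a peroxiredoxin, and sestrins are among them. In heart 0 were at least 2-fold higher or lower, with a median of -0.12. In muscle 1 was higher and 0 lower, with a median of -0.03. The 5 probe sets of Prdx1 carry a second symbol as well and were named for neither. Txnip, which binds and inhibits thioredoxin, read 1433 in d/d heart, against 1759 in f/f heart, and 1935 in d/d muscle, against 1916 in f/f muscle. Sesn2, a sestrin, was at least 3.41-fold higher in d/d muscle on its brighter probe set, at 25.6 in d/d against a signal at the floor in f/f, while its other probe set was at the floor in d/d muscle and read 8.94 in f/f muscle.

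Among 7 reductases fed by thioredoxin, 1 was at least 2-fold higher in heart and 0 lower, with a median of -0.09, and in muscle 0 were higher and 1 lower, with a median of 0.06. Both counts came from Rrm2, a subunit of ribonucleotide reductase and a gene of dividing cells, at 45.6 in d/d heart, against 15.6 in f/f heart, and at the floor in d/d muscle, against 15.8 in f/f muscle. Its 2 other probe sets, dim on all 4 arrays, gave differences of 1.32 and 1.58 in heart and of 0.70 and 0.66 in muscle, the first of each a lower bound. Msrb1, a methionine sulfoxide reductase, read 1176 in d/d heart, against 656 in f/f heart (log2 difference 0.84), and 745 in d/d muscle, against 676 in f/f muscle (0.14). The other methionine sulfoxide reductases of the list did not all follow in heart, with Msrb3 at 0.26, Msra at -0.31 and Msrb2 at -0.64.

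Of 10 glutaredoxins and glutathione peroxidases none passed 2-fold in either tissue, with medians of 0.12 in heart and 0.06 in muscle. Gpx1, which removes hydrogen peroxide with glutathione, read 993 in d/d heart, against 604 in f/f heart, and 468 in d/d muscle, against 450 in f/f muscle. Of 13 genes of oxidative folding in the endoplasmic reticulum, where Prdx4 works, none passed 2-fold between genotypes, with medians of 0.07 in heart and 0.09 in muscle. Between heart and muscle 5 of these 13 were at least 2-fold higher in heart on the d/d arrays and 4 on the f/f arrays, with 0 lower in either. Of all genes 15.1% were at least 2-fold higher and 10.5% lower in d/d, and 12.1% higher and 8.3% lower in f/f. The medians of these 13 were 0.65 in d/d and 0.79 in f/f, where those of all genes were 0.02 and 0.08.

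Of the NRF2 targets, 13 of 16 were measured in heart and none passed 2-fold, with a median of 0.04, 7 above 0 and 6 below. The highest were Nqo1 at 0.86, Hmox1 at 0.72 and Gclc at 0.61 on the log2 scale. The lowest was Gstm1, a glutathione transferase, at -0.47, with -0.53, -0.70 and -1.65 on its 3 other probe sets. In muscle 13 were measured, with none past 2-fold and a median of 0.19, 10 above 0 and 3 below. Gstm1 was higher in d/d muscle, at 0.61, with 0.56, 0.33 and, as a lower bound, 1.47 on its other probe sets. Of 9 genes of mitochondrial NADPH supply, which feeds Txnrd2, 1 passed 2-fold upward in d/d heart and 1 downward, with a median of -0.22, and in muscle 0 passed, with a median of -0.08. Nadk2, the mitochondrial NAD kinase, read 173 in d/d heart, against 424 in f/f heart, 2.45-fold lower, with log2 differences of -0.999 to -1.15 on its 3 other probe sets. The gene that was higher was Mthfd2, at 114 in d/d heart, against 9.35 in f/f heart, close to the floor (log2 difference 3.61). Its other probe set read 64.95 in d/d heart, against 21.5 in f/f heart (1.59). Nnt, the mitochondrial transhydrogenase that makes NADPH, read 1376 in d/d heart, against 2391 in f/f heart (-0.80), and its 2 other probe sets gave -0.62 and, near the floor, 0.32.

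**Figure D5:**
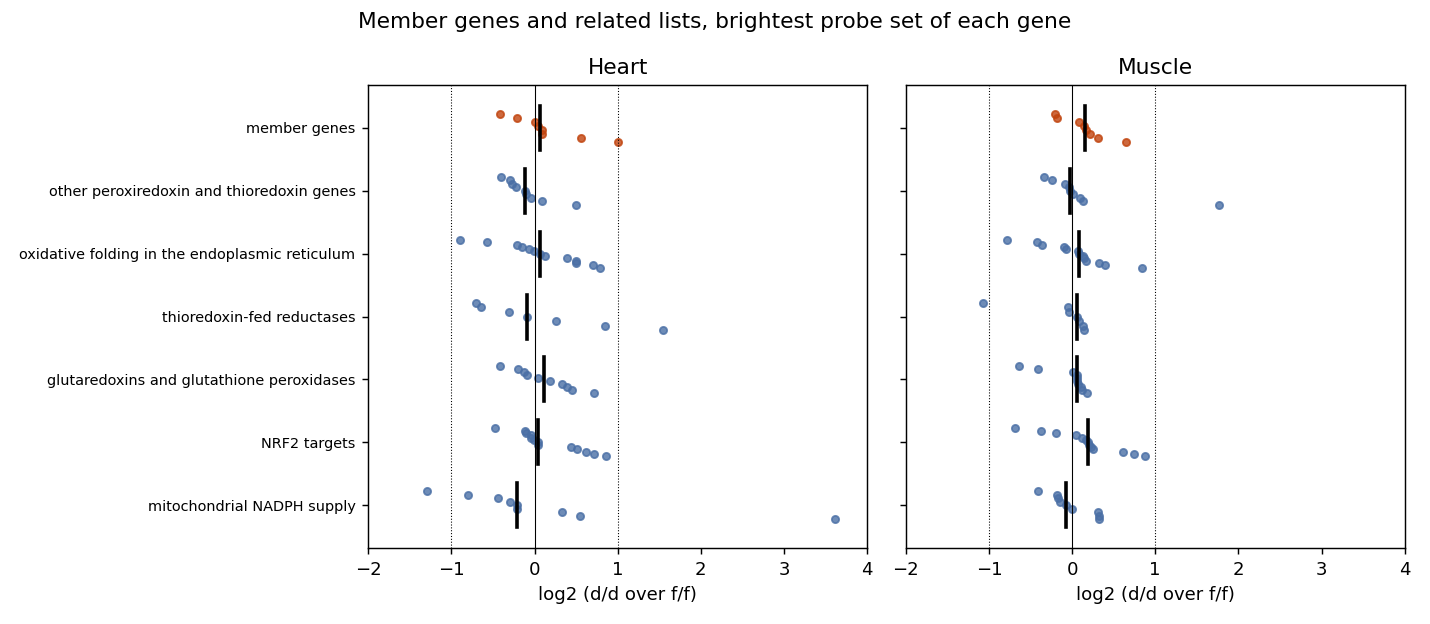
Log2 difference between d/d and f/f in heart (left) and muscle (right) for the 8 member genes and the genes of 6 related lists, each by its brightest probe set, 1 point per gene; black bars are medians, dotted lines mark 2-fold, and differences against the floor are drawn as their lower bound. The list medians lie between -0.22 and 0.12 in heart and between -0.08 and 0.19 in muscle, and Mthfd2 lies apart at 3.61 in heart.

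Markers of other cells differed between the d/d and f/f arrays in some lists and were nearly level in others. They stand beside the values above. The 7 fibroblast markers had a summed level of 8748 in d/d heart, against 5170 in f/f heart, with 3 of 7 past 2-fold upward, and of 4121 in d/d muscle, against 6698 in f/f muscle, with 3 of 7 at least 2-fold lower. In each tissue these were Col1a1, Col1a2 and Pi16. The 8 macrophage markers summed to 2557 in d/d heart, against 2096 in f/f heart, and to 727 in d/d muscle, against 1166 in f/f muscle. Of these 7 of 8 were above 0 in heart and 0 of 8 in muscle, and the 1 past 2-fold in each, Cd163, was lower in d/d, by 2.46-fold in heart and 2.88-fold in muscle. The 6 endothelial markers summed to 1709.8 in d/d heart, against 1337 in f/f heart, and to 721 in d/d muscle, against 718 in f/f muscle. Adipocyte markers were low: 4 were on the arrays, 2 of them at the floor in heart of each genotype, and their sum was 33.5 in d/d heart, against 69.2 in f/f heart, and 56.3 in d/d muscle, against 121 in f/f muscle. Of these Adipoq was 4.47-fold lower in d/d heart and 2.30-fold lower in d/d muscle, and Retn at least 3.05-fold lower in d/d muscle. Of 6 lymphocyte markers 4 were at the floor in d/d heart, against 3 in f/f heart, and 4 in each muscle, and 1, Cd79a, was 2.21-fold lower in d/d heart, close to the floor. Of the 6 cardiomyocyte markers 3 were above 0 and 3 below in heart, with a median of 0.008. The 1 past 2-fold there, Ryr2, was 2.24-fold lower in d/d heart. In muscle 5 of 5 measured cardiomyocyte markers were at least 2-fold lower in d/d, by a median of -2.05 on the log2 scale. Among them were Tnni3 (10.46-fold), Mybpc3 (4.61-fold), Nppa (4.14-fold) and Tnnt2 (2.72-fold). Tnni3 and Mybpc3 were close to the floor in d/d muscle, at 8.30 and 10.4, against 86.8 and 47.9 in f/f muscle. The summed level of these markers was low in muscle, at 183 in d/d and 613 in f/f, against 28327 in f/f heart. The part of these cells in the Srxn1, Txn2, Txnrd1 and Prdx4 values was not tested.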

How the data were processed

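The authors deposited linear intensity values, 1 for each probe set on each array. The steps behind them, scaling included, are not given in the sources used here. Their trimmed means ran from 48.2 to 69.2, so each array was multiplied to a common 2% trimmed mean without its 64 control probe sets. Values under the mean 40th percentile (7.51) were set to it, and log2 was taken. Genotype was read from the titles and tissue from the source names. Of 45037 probe sets, 34945 had 1 symbol in the platform annotation (updated through the Entrez id), 932 had several and 9160 were not listed. The brightest probe set by mean log2 stands for its gene.

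The deposited values carry no detection call, so the floor stands in for background, and the number of arrays limits the precision. Comparisons between 2 arrays have no test. Probe sets of the same gene differed in their log2 differences by an SD of 0.388 in heart and 0.400 in muscle. The fits used limma 3.58.1 (R 4.3.3) over the genes that passed the floor on 2 or more arrays, Benjamini-Hochberg adjusted over all of them. Alternatives were other scalings, floors, probe set choices, filters and variance models. The genes named are all members and, from each list, those past 2-fold between genotypes (at most 4 per direction), with the nearest profiles of the 2 members of widest range. Txnip, Msra, Msrb1, Msrb2, Msrb3, Gpx1, Nnt, Nqo1, Hmox1, Gclc, Gstm1, Alas2, Slc4a1 and Hba-a1 fall outside this rule and were chosen after their values were seen. The members and the lists were chosen with earlier results of these data known.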

Additional observations from a re-analysis of the deposited data

Results flagged for a closer look

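Txn2 and Txnrd2 differed between d/d and f/f in opposite directions in heart and in muscle on the probe set that represents each. For Txn2 the log2 difference in heart less that in muscle was -0.58, from -0.41 in heart and 0.17 in muscle. The muscle value was -0.06 with the median over its probe sets and without probe sets that can share sequence. For Txnrd2 the same quantity was 0.27, from 0.09 in heart and -0.18 in muscle, and both values changed sign with the median over its probe sets. With 1 array per group the difference between the tissues was not tested.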

How the results depend on the processing

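Of 256 values of single genes in the 4 comparisons between arrays, 254 moved by less than the SD between probe sets of a gene under the 8 alternatives. The exceptions, with the median over probe sets, were Prdx4 (1.09) and Txnrd2 (0.95) for heart over muscle in f/f. That SD ran from 0.388 to 0.56 over the comparisons and was wider than many of the differences. A value could thus change sign and still count among the 254. In heart Prdx2 did so, from -0.21 to 0.15, and Txnrd2, from 0.09 to -0.27, with the median over probe sets. The count is therefore a lenient measure. The number of members at least 2-fold different in heart between genotypes was 0, against 1, with the values as deposited and with an offset in place of the floor. Between the tissues it was 2 with quantile normalization and 4 with the values as deposited in d/d, and 2 with the values as deposited and 2 with scaling on the median in f/f, against 1 in each. The values as deposited move the median of all genes between the tissues from 0.02 to 0.45 in d/d and from 0.08 to 0.47 in f/f, so the counts under that setting include this shift. The genotype fit called 0 genes, and 3 with robust variances that follow the level, none of them a member. The tissue fit called 1840 genes, with 1236 under quantile normalization, 1916 above the floor on all arrays, 3156 over probe sets, 3044 with robust variances and 0 without a filter on low signals, where 3631 had an unadjusted p under 0.05. The members called there numbered 1, and 2 over probe sets, both of Prdx4, 3 with robust variances and 0 without the filter. The cause of these changes was not tested. No paired analysis was possible because each group has 1 array and the labels give no replicate numbers, and for the same reason no array could be left out of a comparison. Differences of dim probe sets are limited by the floor.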
